A study of Mus musculus with 24 samples.

Results

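Respiratory complexes I and III pass electrons along the inner mitochondrial membrane, and 44 genes that encode their nuclear subunits were followed here in mouse B-cell lymphomas before and after treatment with Adriamycin (ADR), the anthracycline also called doxorubicin, which damages DNA. The genes are those whose symbol starts with Ndufa, Ndufb, Ndufc, Ndufs or Ndufv (complex I, without the Ndufaf assembly factors) or with Uqcr (complex III) and that had a probe set assigned to a single gene, out of 18193 genes with such a probe set. Ndufs6, Ndufa11, Ndufb4b and Ndufb4c had probe sets shared with other genes only and were not analysed here. Of the 44 genes, 34 encode complex I subunits, 8 encode complex III subunits, and 2, Ndufa4 and its paralog Ndufa4l2, carry complex I names although NDUFA4 is now counted as a subunit of complex IV.

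The samples were 12 primary lymphomas from the lymph nodes of Eμ-Myc transgenic mice, in which an immunoglobulin enhancer drives Myc in the B-cell lineage. Cells of each lymphoma were transduced with a retrovirus carrying Bcl2, which blocks apoptosis, selected with puromycin for 48 hours and grown with a feeder of NIH 3T3 cells, a mouse fibroblast line, that had been gamma-irradiated. Untreated and treated cells thus share the Myc transgene, the added Bcl2 and the feeder, and no normal B cells and no lymphoma cells without Bcl2 were part of the comparison. The treated sample of each lymphoma had received 0.05 µg/ml ADR for 5 days, which the labels mark as a senescence-inducing treatment, and total RNA of both samples was measured on Affymetrix arrays. There were 12 untreated and 12 ADR arrays in 12 matched pairs, and the comparison asks how transcript levels of a lymphoma change with the drug.

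Complex I takes electrons from NADH and hands them to ubiquinone, and complex III takes them from ubiquinol and hands them to cytochrome c; both pump or release protons that drive ATP synthesis. Each complex has a few subunits counted here as core, among them carriers of the flavin, iron-sulfur clusters or a processing-peptidase-like fold. Many accessory subunits surround them. The complex III core list used here holds Uqcrfs1, Uqcrc1 and Uqcrc2, where Uqcrc1 and Uqcrc2 are core proteins by name. Cyc1 (cytochrome c1), which carries electrons, has a symbol outside the rule and is not in that list. The core subunits of complex I form 2 arms: the matrix arm is encoded in the nucleus and the membrane arm in mitochondrial DNA, so the core subunits measured here belong to the matrix arm. MYC is known to raise the transcription of many nuclear genes for mitochondrial proteins, and NRF1, GABPA (an ETS factor) and YY1 are known to bind the promoters of many respiratory chain genes.

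The values are deposited log2 expression levels, 1 per probe set and array, and every change is the log2 difference ADR minus untreated, so that -1 would be a halving. Array medians lay between 4.38 and 4.47. Of the 44 genes, 40 had a mean level above 9, far from that floor, and Ndufb4, at 3.33 untreated and 3.19 with ADR, was below it in both groups. Of 11 measured B-cell markers 0 were below the floor, in either group. Fibroblast markers rose in 15 of 19 with 0 falls and a median change of 1.94, and their mean per array went from between 4.49 and 5.49 untreated to between 4.84 and 9.30 with ADR; 10 of the 19 were below the floor untreated and 1 with ADR. Macrophage markers rose in 11 of 16 with 0 falls and a median change of 1.33 (array means between 4.92 and 7.84 untreated and between 5.87 and 8.81 with ADR), while 4 of the 11 B-cell markers fell, with array means between 9.35 and 10.08 untreated and between 8.0 and 10.5 with ADR. Neutrophil markers rose in 3 of 10, T and NK cell markers in 1 of 9 with 1 fall, and erythroid markers in 0 of 4. In such bulk samples, fewer cells of a type and less RNA per cell cannot be told apart.

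Many of the subunit transcripts fell after ADR, by modest amounts. By limma's paired test with Benjamini-Hochberg adjustment over all genes, 19 of the 44 genes fell, 0 rose (1, Ndufa13, was higher at an unadjusted p under 0.05) and 25 did not pass an adjusted p of 0.05. Over all 18193 genes 12.8% were called lower and 13.7% higher. The median change of the 44 genes was -0.15, beside -0.01 over all genes, and 37 of 44 estimates were below 0. The genes are brighter than most: among the 2046 genes with a mean level above 9, tested on their own, 30.2% were called lower, and of the 40 subunit genes in that test 20 were. Untreated and ADR levels overlapped for each of the 44 genes; groups that do not overlap in this direction were found for 0.264% of all genes. Within pairs, 6 subunit genes were lower with ADR in all 12 lymphomas: Uqcrfs1, Uqcrc1, Ndufv2, Ndufa9, Ndufb11 and Ndufb3. Over all genes 4.17% were lower in all 12, and over genes above 9 it was 8.99%.

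**Figure D1:**
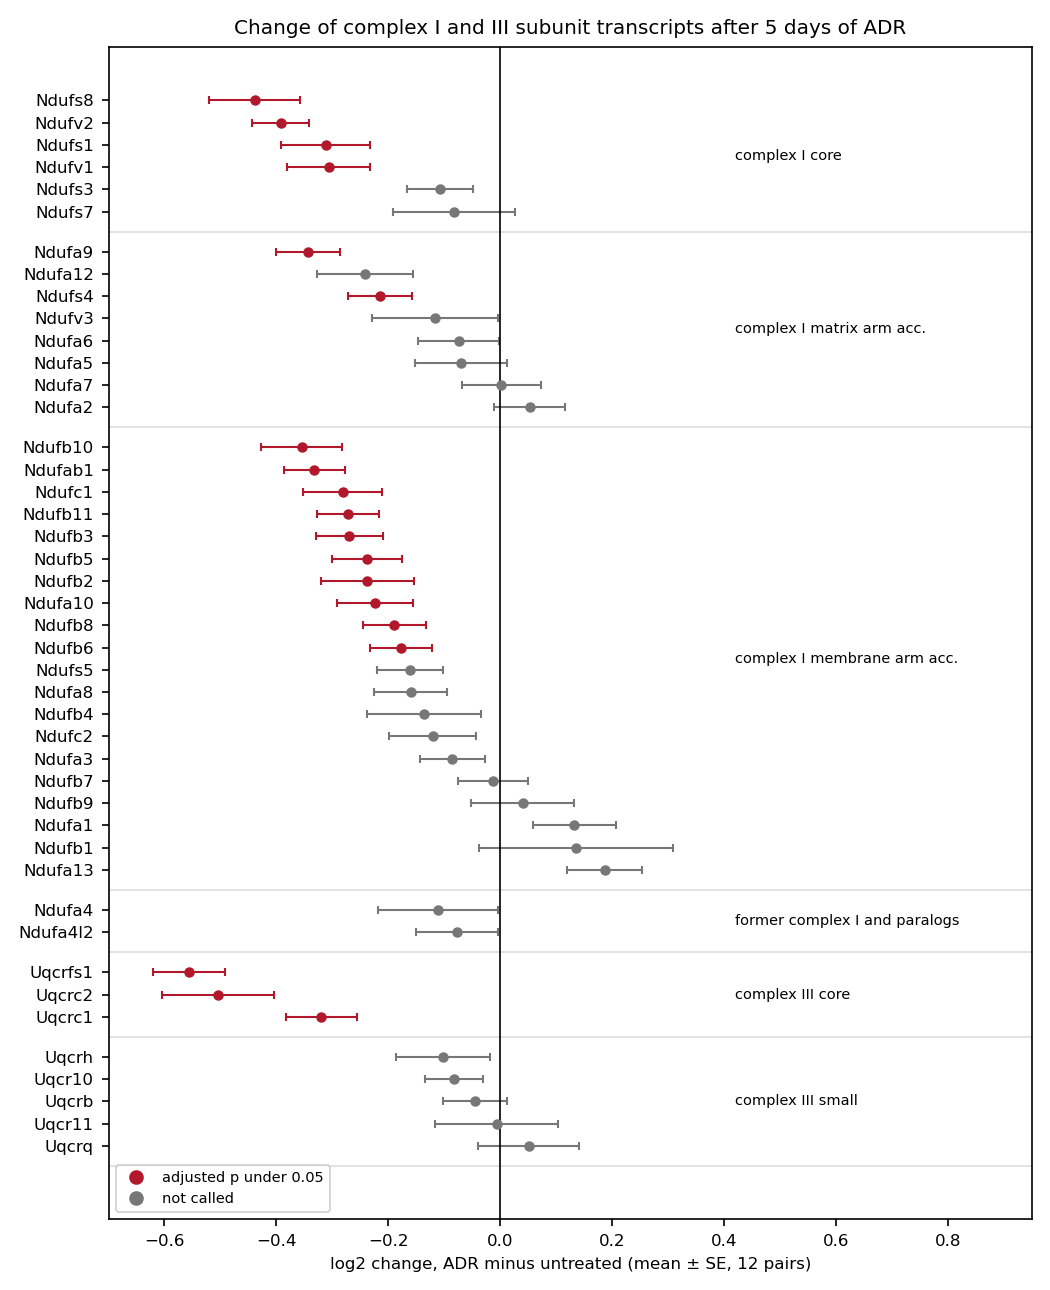
Change of each of the 44 subunit transcripts (x axis, log2 ADR minus untreated; point, mean of 12 pairs; bar, SE), grouped by role; red points passed an adjusted p of 0.05 in limma's paired test. All 19 red points lie left of 0, and the 2 farthest left are core subunits of complex III, Uqcrfs1 at -0.56 and Uqcrc2 at -0.50.

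The promoters of these genes are shown for 5 members to set sequence beside change: the core subunits with the lowest p-values in each complex, Uqcrfs1 and Ndufv2; Ndufa9 and Ndufb6, which fell and hold a searched motif; and Ndufs3, a core subunit that did not pass the test. Each sequence is the 250 bases before the start site in RefSeq's annotation of GRCm38.p6, read 5′ to 3′ in the direction of the gene, and all 5 lie on the minus strand: Uqcrfs1 at chr13:30545317-30545566, Ndufv2 at chr17:66101560-66101809, Ndufa9 at chr6:126849145-126849394, Ndufb6 at chr4:40279422-40279671 and Ndufs3 at chr2:90904722-90904971. Capitals mark a searched motif on either strand.
Uqcrfs1: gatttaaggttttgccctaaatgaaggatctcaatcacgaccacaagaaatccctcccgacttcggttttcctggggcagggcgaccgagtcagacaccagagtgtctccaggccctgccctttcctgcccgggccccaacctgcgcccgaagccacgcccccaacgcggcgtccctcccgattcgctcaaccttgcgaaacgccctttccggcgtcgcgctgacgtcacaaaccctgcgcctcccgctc
Ndufv2: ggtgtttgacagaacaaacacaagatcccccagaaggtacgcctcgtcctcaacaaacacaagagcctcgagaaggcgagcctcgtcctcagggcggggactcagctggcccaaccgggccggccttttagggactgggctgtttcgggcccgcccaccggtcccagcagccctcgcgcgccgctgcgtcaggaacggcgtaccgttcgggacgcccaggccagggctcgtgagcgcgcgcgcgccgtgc
Ndufa9: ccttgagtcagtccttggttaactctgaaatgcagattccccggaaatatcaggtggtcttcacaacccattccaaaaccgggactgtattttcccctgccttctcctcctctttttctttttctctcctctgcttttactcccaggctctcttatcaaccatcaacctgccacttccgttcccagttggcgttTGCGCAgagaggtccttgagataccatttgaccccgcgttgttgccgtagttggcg
Ndufb6: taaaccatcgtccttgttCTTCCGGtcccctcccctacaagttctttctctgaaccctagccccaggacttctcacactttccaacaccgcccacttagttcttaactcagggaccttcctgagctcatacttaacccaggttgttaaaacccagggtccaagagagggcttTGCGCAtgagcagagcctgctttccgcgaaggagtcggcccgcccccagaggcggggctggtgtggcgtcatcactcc
Ndufs3: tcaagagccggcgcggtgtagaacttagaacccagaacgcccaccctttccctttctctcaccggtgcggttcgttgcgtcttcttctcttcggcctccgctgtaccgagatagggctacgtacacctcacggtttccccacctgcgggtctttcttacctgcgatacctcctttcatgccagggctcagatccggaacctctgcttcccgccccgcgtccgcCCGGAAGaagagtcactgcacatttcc

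The motifs searched, on both strands, were TGCGCA (as in NRF1 sites), CCGGAAG (as in sites of ETS factors such as GABPA), AAGATGG (as in YY1 sites) and CACGTG (the E-box bound by MYC and MAX). CCGGAAG and AAGATGG can share the letters AAG where a site of one runs into the other. In the printed sequences TGCGCA begins 56 bases before the start of Ndufa9 and 78 before that of Ndufb6, and CCGGAAG begins 232 bases before the start of Ndufb6, where it reads on the other strand, and 27 before that of Ndufs3. The letters of the 4 motifs are not in the windows printed for Uqcrfs1 and Ndufv2. RefSeq's table held 39 start sites for 37 of the 44 genes. The start sites of Ndufa5 lie close together and share the same TGCGCA, and those of Ndufa7 share the same CACGTG. Such a motif was counted at each start site, in both cases among genes that did not pass. In the window from 250 bases before to 50 after the start, TGCGCA was in 11 of the 39 (28.2%), beside 7.76% of all 32851 promoters and 9.74% of the 21263 of protein-coding genes. Its share was 29.4% among 17 start sites of genes that fell and 27.3% among 22 of genes that did not pass. In the bases before the start alone TGCGCA was in 17.9% of the 39 (6.43% of all promoters and 8.06% of those of protein-coding genes), with 11.8% among genes that fell and 22.7% among those that did not pass. In the whole window CCGGAAG was in 15.4% (8.86% of all promoters and 11.6% of those of protein-coding genes). AAGATGG was in 15.4% (6.34% and 6.24%), in the subunit genes only from the start site on, and CACGTG in 7.69% (7.15% and 7.84%). By call, CCGGAAG was in 11.8% of start sites of genes that fell and 18.2% of those that did not pass. AAGATGG was in 23.5% (4 of 17) and 9.09% (2 of 22), and CACGTG in 5.88% and 9.09%. These are matches of letters and were not tested as binding sites.

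Among the complex III core subunits all 3 fell, with a median change of -0.50. For this and each role group below, the background is 12.8% of all genes called lower. Among genes above 9, tested on their own, it is 30.2%. Uqcrfs1, the Rieske iron-sulfur protein that takes the first electron from ubiquinol, had untreated levels from 10.31 to 11.04 with a median of 10.69, and ADR levels from 9.55 to 10.70 with a median of 10.06. It was lower with ADR in 12 of 12 lymphomas, by 0.19 at the least (3802) and 0.83 at the most (3769). The mean went from 10.67 ± 0.24 to 10.11 ± 0.30 (SD, n = 12), a 1.47-fold fall (change -0.56, SE 0.07, limma adjusted p 5.27e-05).

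Uqcrc2, a core protein with a peptidase-like fold, had untreated levels from 10.30 to 11.19 (median 10.90) and ADR levels from 9.53 to 11.06 (median 10.39). The ADR levels spread more widely than the untreated ones, and 2 lymphomas, 3802 and 2949, went up slightly while 2581 lost 1.03. The mean went from 10.80 ± 0.33 to 10.30 ± 0.47 (SD, n = 12; change -0.50, SE 0.10, limma adjusted p 0.00225). Uqcrc1, the partner core protein, went from levels between 9.86 and 10.95 (median 10.32) to levels between 9.50 and 10.55 (median 10.04), lower in 12 of 12 (change -0.32, SE 0.06, limma adjusted p 0.00206).

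Of the complex III small subunits 0 of 5 were called, and their median change was -0.05. Uqcrb, a ubiquinone-binding-site subunit, stood at 12.51 ± 0.20 untreated and 12.47 ± 0.22 with ADR (SD, n = 12). Uqcrh, the hinge protein that contacts cytochrome c1, stood at 11.79 ± 0.28 and 11.69 ± 0.22. The estimates of Uqcr10, Uqcr11 and Uqcrq were -0.08, -0.01 and 0.05, each with lymphomas on both sides of 0. A test of the small subunits against the core subunits was not made, so a difference between them is not shown.

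Among the complex I core subunits 4 of 6 fell, with a median change of -0.31. Ndufs8, a ferredoxin-like subunit with iron-sulfur clusters next to the ubiquinone site, had untreated levels from 9.90 to 11.60 (median 11.25) and ADR levels from 9.91 to 11.25 (median 10.70). Lymphoma 2949 was the lowest in both groups and the only one without a fall (0.01), while 2581 fell by 0.96. The mean went from 11.07 ± 0.51 to 10.64 ± 0.43 (SD, n = 12), 1.36-fold lower (change -0.44, SE 0.08, limma adjusted p 0.0013).

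Ndufv2 carries the iron-sulfur cluster beside the flavin, off the main electron path. Its untreated levels ran from 10.34 to 11.25 (median 10.96) and its ADR levels from 10.07 to 10.89 (median 10.52). All 12 lymphomas fell, within the narrow range of 0.21 to 0.63, and the change was -0.39 (SE 0.05, limma adjusted p 0.000102), 1.31-fold lower. Ndufv1, which binds NADH and the flavin, went from levels between 9.58 and 10.23 (median 9.96) to levels between 9.18 and 10.06 (median 9.68). It fell in 11 of 12 lymphomas, with 403 at 0.00, and the change was -0.31 (SE 0.07, limma adjusted p 0.00727).

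Ndufs1, the largest complex I subunit, with several iron-sulfur clusters, had untreated levels from 9.03 to 10.15 (median 9.75) and ADR levels from 8.87 to 9.69 (median 9.42). Lymphoma 1467, the lowest untreated, rose by 0.35 and the other 11 fell, most in 403 (change -0.31, SE 0.08, limma adjusted p 0.0101). The other 2 measured core subunits did not pass. Ndufs3, which helps build the ubiquinone-reducing part of the matrix arm, was lower in 10 of 12 by a small amount (change -0.11, SE 0.06, limma adjusted p 0.216). Ndufs7, which holds the last iron-sulfur cluster before ubiquinone, had untreated levels from 9.31 to 10.24 and ADR levels from 9.41 to 10.07, with 5 lymphomas lower and 7 higher. Its changes ran from -0.67 in 2581 to 0.76 in 2949 (mean -0.08, SE 0.11, limma adjusted p 0.652). A second, dimmer probe set of Ndufs7, with an untreated mean of 9.46, was lower in 9 of 12 lymphomas. Its change was -0.16 (limma adjusted p 0.141 over the probe sets), so the split in direction belongs to the probe set used here.

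**Figure D2:**
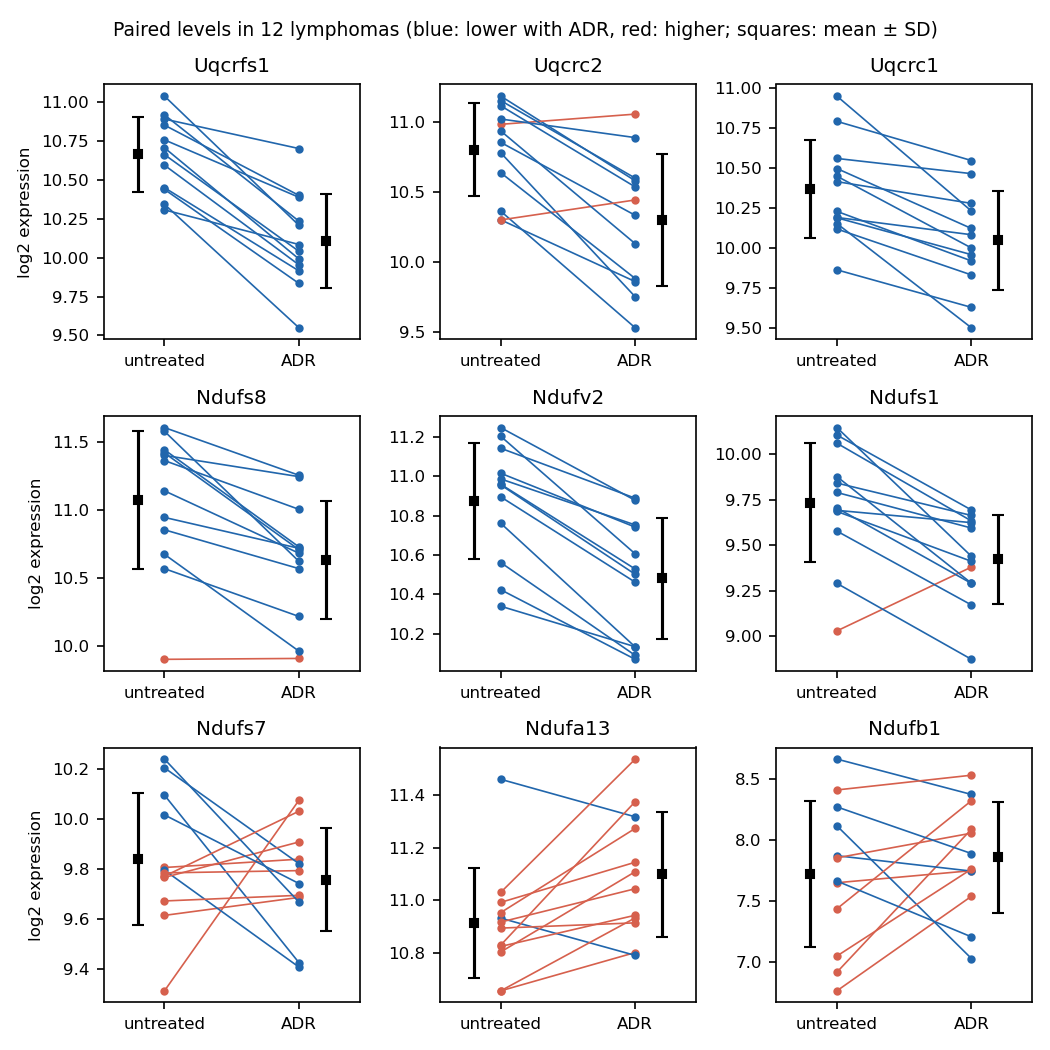
Log2 expression of 9 subunit genes in each of 12 lymphomas, untreated and after ADR; each line is 1 lymphoma (blue, lower with ADR; red, higher) and black squares with bars are group means ± SD. Every line falls for Uqcrfs1, Uqcrc1 and Ndufv2, while the lines of Ndufs7 and Ndufb1 cross.

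Of the 8 measured accessory subunits of the matrix arm, 2 fell (median change -0.10). Beside this stand 12.8% of all genes called lower and 30.2% of genes above 9, tested on their own. The 2 of 8 are therefore not read as a trait of this arm. Ndufa9, which sits beside the ubiquinone channel, went from levels between 9.75 and 10.58 (median 10.28) to levels between 9.62 and 10.27 (median 9.97). It was lower in 12 of 12 lymphomas, though by no more than 0.01 in 3594 (change -0.34, SE 0.06, limma adjusted p 0.000669). Ndufs4, needed to stabilise the NADH-oxidising end of the arm, changed by -0.22 (SE 0.06, limma adjusted p 0.0128), lower in 11 of 12. Ndufa12 lay just outside the threshold at -0.24 (SE 0.09, limma adjusted p 0.0507). The estimates of Ndufv3, Ndufa6, Ndufa5, Ndufa7 and Ndufa2 lay between -0.12 and 0.05. Ndufv3 had the second widest SE of the genes that did not pass (0.11), with changes from -0.58 in 1570 to 0.81 in 2581.

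Of the 20 measured accessory subunits listed here under the membrane arm, with Ndufab1 counted there alone, 10 fell (median change -0.17). The shares called lower were 12.8% of all genes and 30.2% of genes above 9, tested on their own. Ndufb10 went from levels between 9.51 and 10.26 (median 9.84) to levels between 9.03 and 10.04 (median 9.55). It was lower in 11 of 12 lymphomas, with 2949 up by 0.22 (change -0.35, SE 0.07, limma adjusted p 0.00263). Ndufab1, the mitochondrial acyl carrier protein, which also serves lipoic acid and iron-sulfur cluster synthesis, went from levels between 10.63 and 11.15 (median 10.84) to levels between 10.21 and 11.00 (median 10.46). Only lymphoma 1467 did not fall (0.02), and the change was -0.33 (SE 0.05, limma adjusted p 0.000556).

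The other 8 membrane arm genes that fell were Ndufc1 (-0.28), Ndufb11 (-0.27), Ndufb3 (-0.27), Ndufb5 (-0.24), Ndufb2 (-0.24), Ndufa10 (-0.22), Ndufb8 (-0.19) and Ndufb6 (-0.18). Ndufb11 and Ndufb3 were lower in all 12 lymphomas, by at least 0.03 and 0.02. Ndufa10, which has a nucleoside kinase fold, and Ndufb2, with a limma adjusted p of 0.0482, were lower in 10. The remaining 10 genes did not pass, with estimates from -0.16 (Ndufs5, adjusted p 0.058; Ndufa8, adjusted p 0.0869) to 0.19. The highest was that of Ndufa13, also known as GRIM-19, a subunit linked to cell death signalling, with untreated levels from 10.66 to 11.46 (median 10.91) and ADR levels from 10.79 to 11.54 (median 11.08). It was higher in 10 of 12 lymphomas (SE 0.07, limma adjusted p 0.0553; 0.0457 after quantile normalization between arrays). Ndufb1 had the widest SE, 0.17, and changes from -1.09 in 5560 to 1.17 in 2949. The estimates of Ndufa4 and Ndufa4l2, -0.11 and -0.08, did not pass either.

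Leaving out each lymphoma in turn kept the calls of 15 of the 19 genes in all 12 refits, the 7 core subunits among them. Without the replicate block that pairs the arrays of a lymphoma, 11 subunit genes were called, all lower, beside 8.68% of all genes. Ndufb8 lost its call without 3769 (adjusted p 0.0529). Ndufb6 lost it without 3769, 5766, 6054 or 7050 (adjusted p between 0.0619 and 0.0656), and Ndufa10 without 3594, 3769, 5560, 7050 or 403 (between 0.0506 and 0.0586). Ndufb2 kept it without 1467 or 2949 only, and its adjusted p ran from 0.00743 to 0.098. Without lymphoma 2949, 22 genes fell and 1 rose (14% of all genes were called lower and 14.4% higher): Ndufa12 (adjusted p 0.0233), Ndufs5 (0.0431) and Ndufa8 (0.0258) joined those that fell, and Ndufa13 rose (0.0279), as it did without 1467 (0.0283). Ndufa12 also passed without 3802 (0.0417) or 6054 (0.0325), and Ndufs5 without 3594 (0.0392) or 7050 (0.0329).

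Of the 44 genes, 25 were measured by more than 1 single-gene probe set. The 44 genes had 94 single-gene probe sets, and in a limma fit over all 34945 such probe sets 36 of the 94 were called lower and 0 higher, with 12.5% of all of them called lower. For Ndufv1, Ndufv2, Ndufb5, Ndufb11 and Uqcrc2 every probe set was called lower. Ndufs8 was called by 5 of 6 probe sets with changes between -0.39 and -0.44, and the sixth, a dimmer probe set, gave -0.12. Other genes were called by some of their probe sets only. For Ndufb2 the probe set used here was not called in that fit (limma adjusted p 0.0522), and a dimmer one was (0.0346). Ndufab1 was called by the brightest of 5, and the dimmer ones gave -0.18, -0.02, -0.04 and 0.17; with the mean of all its probe sets its change was -0.08 (limma adjusted p 0.357). Ndufa10 and Ndufb8 each had a second, dim probe set with an estimate above 0 (0.12 and 0.06), and with the mean of both their changes were -0.05 (adjusted p 0.717) and -0.06 (adjusted p 0.532). For Uqcr10 the brightest, used here, gave -0.08 and was not called, and its 2 others, with untreated means of 7.39 and 7.54, fell by 0.44 and 0.30 (limma adjusted p 0.0295 and 0.0285 over the probe sets). With the mean of all probe sets Ndufb6 was not called either (-0.18, limma adjusted p 0.073), and Uqcr10 (-0.28, adjusted p 0.0193) and Ndufs5 (-0.16, adjusted p 0.0465) were called lower.

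The subunits did not move alike in all lymphomas. The median change over the 44 genes was below 0 in 12 of 12 lymphomas, from -0.35 in 3769, where 39 genes were lower, to -0.03 in 2949, where 22 were. Over the 9 core subunits the median change ran from -0.71 in 403 to -0.07 in 2949. The next smallest core changes were those of 3802 (-0.19) and 1467 (-0.23), and the next largest were 3769 (-0.59) and 5766 (-0.56). Beside these stand the changes of the fibroblast marker mean, which were largest in 403 (4.42) and 5560 (4.13) and smallest in 1467 (-0.10), 2949 (0.59), 3802 (0.74) and 1570 (0.77). The macrophage marker mean changed most in 2581 (2.85) and least in 403 (0.16), with 1.97 in 3769, 0.44 in 2949 and 1.68 in 1467. The change of the B-cell marker mean ran from -1.73 in 5560 to 0.42 in 1570. Myc, the driver of these lymphomas, fell (change -0.75, SE 0.22, limma adjusted p 0.0231, and 0.0511 without lymphoma 3594). It was lower in 9 of 12 lymphomas, with rises of 0.16 in 1467, 0.29 in 2949 and 0.34 in 3802. A relation of the marker or Myc changes to the subunit changes was not tested.

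**Figure D3:**
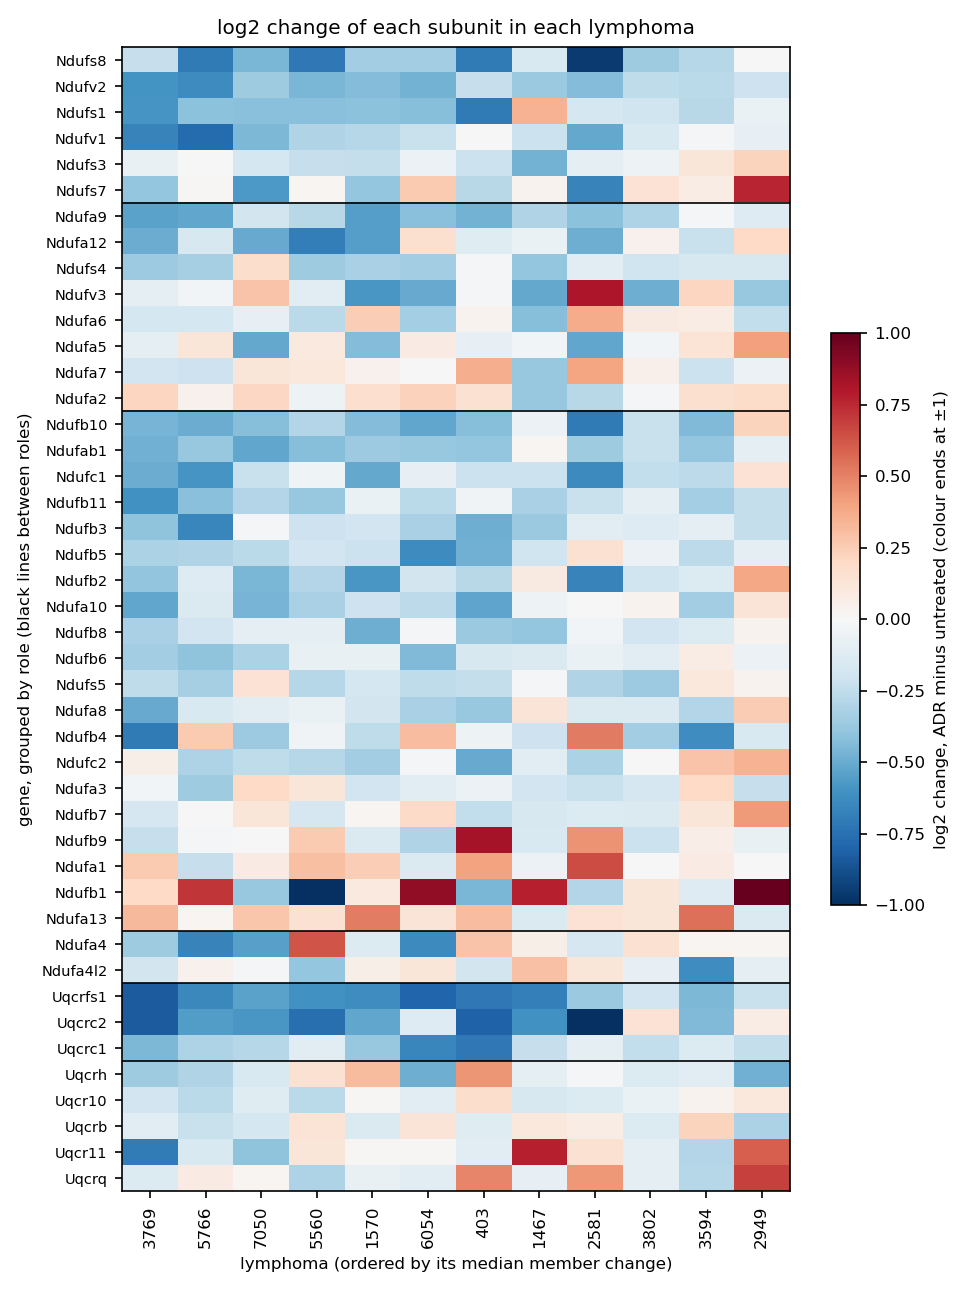
Log2 change (colour, ADR minus untreated, ending at ±1) of each of the 44 subunit genes (rows, by role) in each of 12 lymphomas (columns, ordered by the median change). Blue, for lower, fills most of the core rows; the column of 2949, at the right, has 22 of 44 genes lower and that of 3769, at the left, 39.

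The markers of other cells were also entered into the fit. With the fibroblast marker mean of each array as a covariate, 2 subunit genes were called, both lower (3.17% of all genes were called lower): Uqcrfs1 (change -0.46, SE 0.12, limma adjusted p 0.0426) and Ndufv2 (-0.36, SE 0.10, adjusted p 0.0486). The median change over the 44 genes was then -0.16 and the median SE 0.12, beside -0.15 and 0.07 without the covariate. The median of the 9 core subunits went from -0.32 to -0.19. Among them Uqcrc1 and Ndufv1 kept similar estimates (-0.27 and -0.27), while those of Ndufs8, Uqcrc2 and Ndufs1 became -0.15, -0.19 and -0.02, and Ndufs7 turned to 0.13. With the fibroblast and macrophage means together 0 of 18193 genes were called (2200 at an unadjusted p under 0.05, 5 of them subunit genes), with a median subunit change of -0.12 and a median SE of 0.17. Without lymphomas 403 and 5560, where fibroblast markers rose most, 15 subunit genes were called, all lower, with a median change of -0.17, beside 10% of all genes called lower. The fibroblast marker mean also rose in the lymphomas kept, by up to 2.72 (3594), except in 1467 (-0.10). This refit thus does not remove the fibroblast marker rise. The part of feeder or macrophage RNA in the subunit changes was not tested beyond these fits.

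**Figure D4:**
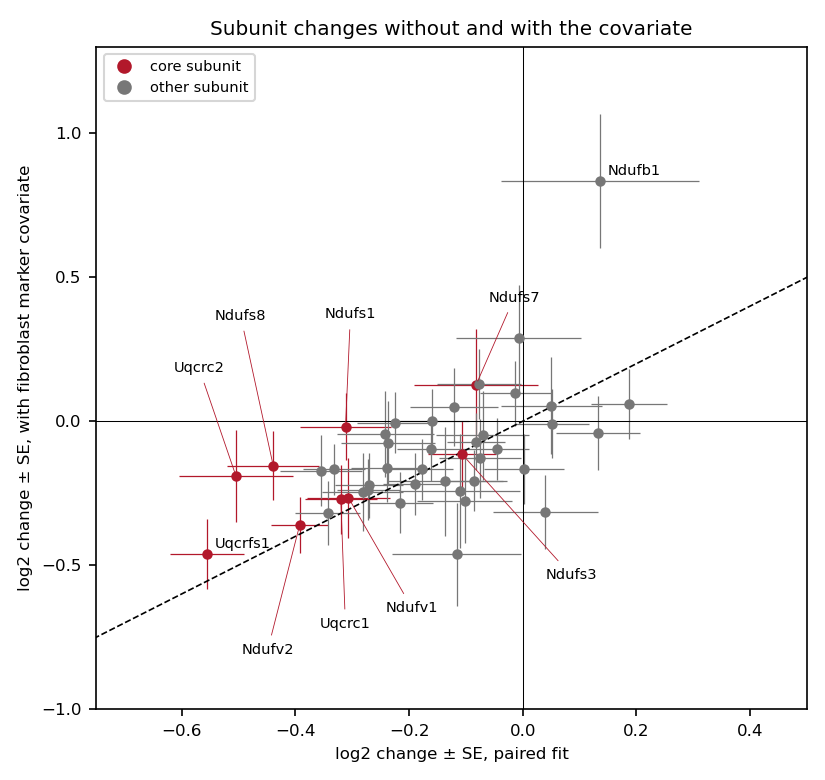
Change of each subunit gene with the array's fibroblast marker mean as a covariate (y axis, log2 ± SE) against its change in the paired fit (x axis, log2 ± SE); the dashed line marks equal values. Uqcrfs1, Ndufv2, Uqcrc1 and Ndufv1 stay near the line, whereas Ndufs8, Uqcrc2 and Ndufs1 lie above it, closer to 0, and Ndufb1 moves up to 0.83 (limma adjusted p 0.056).

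The array files of treated samples carry 2 kinds of name in the labels, with "sen" in 5 lymphomas (1467, 1570, 2581, 5560 and 403) and "DOX" in the other 7, without explanation. Within the DOX set 11 subunit genes were called and within the sen set 2, Uqcrfs1 and Uqcrc2, all lower (8.8% and 2.6% of all genes were called lower). The median subunit change was -0.15 in the DOX set and -0.20 in the sen set, and the core median -0.34 and -0.31. By limma on the 12 differences, the change of 0 subunit genes and 0 of all genes differed between the sets; an unadjusted p under 0.05 was reached by 6 subunit genes (13.6%) and by 6.8% of all genes. The lowest adjusted p among the subunits was that of Uqcrh (0.658), which was 0.16 higher with ADR in the sen set and 0.29 lower in the DOX set. Uqcrc2 fell by 0.74 in the sen set and by 0.33 in the DOX set (adjusted p of the difference 0.72).

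Genes that build, feed or neighbour the 2 complexes were followed in 8 further lists. In these, 45 of 115 measured genes fell and 4 rose, with a median change of -0.18. Over all genes, the background for each list, 12.8% were called lower and 13.7% higher. Of the 44 subunit genes 19 fell and 0 rose, with a median change of -0.15, so falls were not particular to the subunits. Among genes above 9, tested on their own, 30.2% were called lower, and 22 of the 49 list genes there. Of 16 complex I assembly factors 7 fell and 0 rose (median -0.32). Ndufaf6 fell most, from 7.87 ± 0.41 to 6.94 ± 0.39 (SD, n = 12; change -0.93, SE 0.11, limma adjusted p 4.68e-05), lower in 12 of 12. Ecsit, an assembly factor with a second role in Toll-like receptor signalling, followed with -0.64 (SE 0.12, limma adjusted p 0.0018). Of 7 further complex III genes 3 fell and 1 rose. Bcs1l, which inserts the Rieske protein into the complex, fell by 0.63 in 12 of 12 lymphomas (SE 0.11, limma adjusted p 0.000699). Cyc1, cytochrome c1, the electron-carrying subunit whose symbol lies outside the rule, fell by 0.36 (SE 0.07, limma adjusted p 0.00151). Ttc19, which helps clear fragments of the Rieske protein, rose by 0.61 (SE 0.16, adjusted p 0.0118).

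Among electron carriers and complex II 7 of 13 genes fell and 1 rose (median -0.15). Dhodh, the pyrimidine synthesis enzyme that gives electrons to ubiquinone, fell by 0.79 (SE 0.17, limma adjusted p 0.00318) and Sdhaf3 by 0.53, and Sdhaf4 rose by 0.29. Of 16 ATP synthase genes 10 fell and 0 rose (median -0.17), with Atp5a1 at -0.45 and Atp5o at -0.39, both lower in 12 of 12. Of 22 complex IV subunits and assembly factors 4 fell and 1 rose (median -0.09). Cox7a1 fell by 1.29 from a low and variable level of 5.52 ± 1.31 (SD, n = 12), and Cox17, a copper chaperone, by 0.33. Sco2, also a copper chaperone and a known p53 target, was higher in 12 of 12 (0.71, SE 0.15, limma adjusted p 0.00336). Of 12 coenzyme Q synthesis genes 3 fell and 1 rose, with Coq6 at -0.57, Coq2 at -0.45 and Coq10b at 0.73.

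Of 18 regulators of mitochondrial biogenesis 7 fell and 0 rose (median -0.23). Tfb1m, which methylates mitochondrial ribosomal RNA, fell most (-0.83, SE 0.13, limma adjusted p 0.000337), followed by Nrf1 (-0.73, SE 0.12, limma adjusted p 0.000657). Tfam, which packages mitochondrial DNA and activates its transcription, and Gabpa each fell by 0.65, in 12 of 12 lymphomas. Of 11 genes for the outer membrane and protein import 4 fell and 0 rose, with Timm50 at -0.46 and Timm44 at -0.28.

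**Figure D5:**
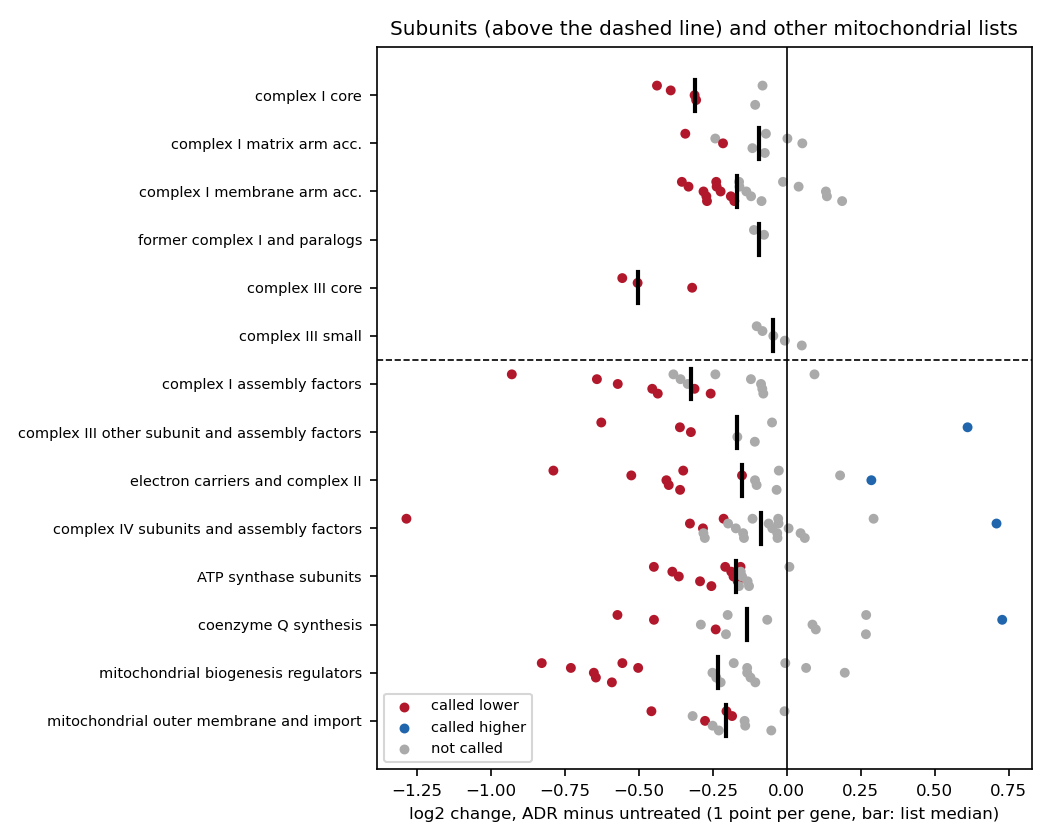
Change of each gene (points, log2 ADR minus untreated) in the role groups of the subunits, above the dashed line, and in 8 other mitochondrial lists below it; bars are list medians, red points were called lower and blue points higher. The subunits have no blue point, and the other lists have 4: Ttc19, Sdhaf4, Sco2 and Coq10b.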

How the data were processed

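Values were deposited by the authors as log2 expression, 1 per probe set and array; the submitters' processing notes name RMA and Partek, with no version or setting. The scale is not labelled and was taken from the range of the values (1.97 to 14.36). RMA compresses weak probe sets toward a floor, so changes of dim genes look smaller. Of 45101 probe sets, 34945 carried 1 gene symbol and 932 several in the annotation used; where a gene had several of the former, the one brightest on average over the 24 arrays stood for it, which left 18193 genes.

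ADR was compared with untreated by limma 3.58.1 (R 4.3.3; lmFit, eBayes) with the lymphoma as a block, adjusted by Benjamini-Hochberg over all genes and called at an adjusted p under 0.05. The pairs follow the lymphoma number in each title, and the design text speaks of matched pairs. Deviations from the group means correlated at 0.267 to 0.595 within pairs, above 0.1 in 12 of 12; the best match was the own pair in 10 lymphomas and lymphoma 5766 for 2949 and 6054. Arrays correlated at 0.886 to 0.992. Each pair is a separate lymphoma, and their number limits the precision. Simulated data for this comparison had 200 of 18193 genes changed. There, 28% of the genes shifted by 0.3 were found and 62% of those shifted by 0.5, and 3.23% of calls were false. In the data 4829 genes were called, which makes the adjusted threshold less strict, and the simulation drew on the SDs of all genes. These shares therefore do not hold for the subunit genes as such.

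A further gene that meets the symbol rule is not reported here. The genes, lists, motifs, alternatives and tests were chosen with earlier results of these data known. Genes outside the 44 are named by rule: in each list the 2 called with the largest change in the main direction and the 1 the other way, plus Myc; other genes of those lists were chosen after their values were seen. Among the 44, fuller values are given for the core subunits, the 8 largest falls among called genes and the 2 widest SE among genes not called. Ndufa13, Ndufs4 and Ndufa12 were chosen after their values were seen. The group means of Uqcrb and Uqcrh are also given outside this rule. Motif shares are counts with no test, from RefSeq start sites of GRCm38.p6 read with Python 3.11.15 and pandas 2.3.3; figures used matplotlib 3.10.9. Alternatives covered the pairing, the choice of probe set, centring, quantile normalization, filters at 6 and at 9 (the filter at 9 was added after seeing the data), variance moderation, array weights, naming sets, marker covariates and each lymphoma left out.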

Additional observations from a re-analysis of the deposited data

How the results depend on the processing

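The count of 19 subunit genes called stayed between 15 and 23 when each lymphoma was left out, and between 15 and 22 with another probe set, centring, quantile normalization, the filters, other variance moderation, array weights or without lymphomas 403 and 5560. Ndufa13 was called higher with the mean of all probe sets, quantile normalization, the filter at 9 and array weights (adjusted p between 0.0305 and 0.0473), and no other subunit gene was called higher under these. The count of subunit genes was 11 without the replicate block for the paired lymphomas, 11 within the DOX set, 2 within the sen set, 2 with the fibroblast covariate and 0 with both covariates (5 subunit genes at an unadjusted p under 0.05). For all genes the main count of 4829 became 3210 without the replicate block, 1082 with the filter at 9 (fewer genes tested), 811 in the sen set, 948 with the fibroblast covariate and 0 with both (2200 at an unadjusted p under 0.05). For the 8 other lists 49 became 23 with the filter at 9 (fewer genes tested), 28 in the DOX set, 7 in the sen set, 9 with the fibroblast covariate and 0 with both (13 at an unadjusted p under 0.05); with each lymphoma left out it lay between 42 and 57, and that for all genes between 3966 and 5165. The sets hold fewer lymphomas; the covariates raised the SE, and what else they changed was not tested.

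Among the genes with fuller values and Myc, signs turned for Ndufs7 in the DOX set (0.041), with the fibroblast covariate (0.13) and with both (0.48), for Ndufb1 in the sen set (-0.19), and with the fibroblast covariate for Ttc19 (-0.11), Coq10b (-0.019) and Myc (0.34). With both covariates they turned for Ndufs8 (0.011), Uqcrc2 (0.12), Ndufb10 (0.042), Ecsit (0.085), Dhodh (0.30), Coq10b (-0.38), Timm50 (0.23), Timm44 (0.022) and Myc (0.16), none of them called there; the cause was not tested. Over all 44 genes signs turned for 17 with both covariates, the called Ndufc1 (0.06) and Ndufb2 (0.14) among them, for 10 with the fibroblast covariate (0 of the called) and for 6 in each naming set (0 of the called). Ndufb8 turned to 0.06 with the probe set of the largest variance and was not called. Ndufs4 (-0.15), Ndufab1 (-0.02), Ndufb6 (-0.19) and Ndufb2 (-0.24) were not called there either. Ndufa3 (-0.32) and Uqcr10 (-0.44) were called lower there. The median of all genes moved by less than 0.03 under centring or quantile normalization. The differences between naming sets stayed at 0 subunit genes under centring and with each lymphoma left out, where 2 to 8 had an unadjusted p under 0.05. Confined to the bases before the start, AAGATGG was in 0% of the subunit promoters. Genes below the array medians, such as Ndufb4, are limited by the floor.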

Other observations

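Before treatment the lymphomas already differed in these transcripts. Untreated lymphoma 2949 had the lowest level of the 12 in 19 of the 44 subunit genes, among them Ndufs8, Ndufv2, Ndufv1, Ndufs3, Ndufs7, Ndufa9, Uqcrfs1 and Uqcrc1, whereas it was lowest in 25.7% of all genes with a mean level above 9. Its median deviation from the untreated mean was -0.40 over the 9 core subunits. With ADR its core deviation from that same untreated mean was -0.46, still among the lowest. Only 6054 was lower (-0.53), and the other ADR arrays ran from -0.45 in 5766 to 0.01 in 3802. Untreated lymphomas 1467 and 1570 had the highest level in 12 and 11 of the 44 genes (14% and 7.18% of genes above 9). These are counts over genes that share an array and carry no test.

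The spread of the subunit transcripts between lymphomas was similar in both groups, with a median SD of 0.25 untreated and 0.24 with ADR. Over all genes above 9 the median SD was 0.31 untreated and 0.34 with ADR. The SD was larger with ADR in 21 of the 44 subunit genes and in 59.4% of genes above 9.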
